A study of Rattus norvegicus with 6 samples.

Results

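Rtp3, Ppp1r17, Tmem178a, Bola2 and Clmp are 5 rat genes that were picked because their signals were much higher, or higher on every probe set, in cortical cells transfected with Math2. Math2 is now called Neurod6 and is a neuronal transcription factor of the basic helix-loop-helix (bHLH) class. All probe sets that the platform annotation gives to 1 of these symbols were taken, which made 6 of the 31042 probe sets other than controls. Rtp3, Ppp1r17, Tmem178a and Bola2 have 1 probe set each and Clmp has 2. They were chosen by their signal differences between Math2 and control on these same arrays. The differences of the 5 genes are therefore given as a description, with no test.

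The Math2 group was made of primary cortical cells of rat brain that received 13.3 µg of a Math2 expression vector per 10 cm dish, and the control group of the same kind of cells that received 13.3 µg of a control vector. Dishes of both groups also received 2.7 µg of a vector for LNGFR, a nerve growth factor receptor cut off inside the cell, by which transfected cells were selected after 24 h. RNA of the selected cells, 50 ng per sample, was amplified in a two-cycle procedure and hybridized to Affymetrix arrays that cover the rat genome. There were 3 Math2 and 3 control arrays, and no label ties them to separate cultures or animals, so any p-value here covers the spread among these arrays alone, and that spread may be technical. In such bulk samples a change in the share of cells of a type and a change in RNA per cell cannot be told apart.

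Factors of the bHLH class bind DNA as pairs at short palindromic motifs called E-boxes, and those of the neuronal branch drive the maturation of cortical neurons. The 5 genes have no common pathway. Rtp3 belongs to the receptor transporter proteins, which in human cells help some receptors of taste to reach the cell surface. Ppp1r17, also called G-substrate, is a target of cGMP-dependent protein kinase that inhibits protein phosphatases 1 and 2A and is best known from Purkinje cells of the cerebellum. Tmem178a is a membrane protein of the endoplasmic reticulum that in mouse osteoclasts restrains calcium release and NFAT signalling. Bola2 is a BolA protein which, in human cells, works with the glutaredoxin Glrx3 in handling iron-sulphur clusters in the cytosol. Clmp is an immunoglobulin-type adhesion protein found at cell junctions.

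The start regions of the genes are shown because the transfected factor is one that binds E-boxes. RefSeq windows of 300 bases on the GRCr8 assembly, from 250 bases before to 50 after the annotated start, were at hand for 3 of the 5 genes. They lie at chr8:119853046-119853345 on the minus strand for Rtp3, at chr4:86543871-86544170 on the plus strand for Ppp1r17 and at chr6:19815760-19816059 on the minus strand for Tmem178a. Each is written 5′ to 3′ on the strand of its gene, with every E-box (CANNTG, the same on both strands) in capitals.
Rtp3: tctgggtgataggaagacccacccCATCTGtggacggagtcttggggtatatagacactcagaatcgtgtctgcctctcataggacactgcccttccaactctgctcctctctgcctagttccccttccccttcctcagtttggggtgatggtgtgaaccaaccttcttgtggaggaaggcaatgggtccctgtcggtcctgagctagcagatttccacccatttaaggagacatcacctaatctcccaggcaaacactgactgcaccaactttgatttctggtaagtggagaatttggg
Ppp1r17: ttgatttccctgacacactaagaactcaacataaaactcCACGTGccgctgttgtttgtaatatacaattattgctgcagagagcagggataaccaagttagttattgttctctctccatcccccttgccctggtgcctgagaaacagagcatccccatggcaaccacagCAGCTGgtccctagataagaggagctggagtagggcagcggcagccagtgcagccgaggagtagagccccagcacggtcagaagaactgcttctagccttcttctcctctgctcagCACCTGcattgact
Tmem178a: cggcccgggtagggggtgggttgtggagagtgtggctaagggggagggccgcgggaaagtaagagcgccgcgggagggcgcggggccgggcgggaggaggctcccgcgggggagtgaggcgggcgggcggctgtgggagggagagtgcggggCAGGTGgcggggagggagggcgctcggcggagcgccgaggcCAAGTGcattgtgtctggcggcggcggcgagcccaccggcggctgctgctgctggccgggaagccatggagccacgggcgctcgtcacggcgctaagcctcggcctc

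Each of the 3 windows held at least 1 E-box. Rtp3 had 1, CATCTG at position 25 of the window. Ppp1r17 had 3, which were CACGTG at position 40, CAGCTG at 171 and CACCTG at 287. Tmem178a had 2, CAGGTG at position 153 and CAAGTG at 194. Of all 33469 RefSeq windows of this length 72.1% held at least 1 CANNTG, 38.6% at least 2 and 16.6% at least 3, so an E-box in such a window is common. CATCTG or its reverse complement was present in 16.6% of all windows, CAGCTG in 15.1%, CACGTG in 6.42%, CAAGTG in 14.1%, and CAGGTG, which is the reverse complement of CACCTG, in 18.8%. The window of Tmem178a was rich in G and C, at 76.7% with 36 CG dinucleotides, whereas the windows of Ppp1r17 and Rtp3 had 51.3% and 51.7% with 5 and 3. A motif match is a description of the sequence and says nothing of binding.

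Signals are intensities on a linear scale as deposited, 1 per probe set and array, and array medians ran from 102 to 120. Over all arrays the bulk of signals was equalized by the deposited scaling, but the 18 probe sets for hybridization spike-ins (BioB, BioC, BioD and Cre) averaged, as a geometric mean, 6773, 4044 and 3875 on Math2 arrays 1, 2 and 3, against 2476, 1893 and 2566 on control arrays 1, 2 and 3. The ratio of the Gapdh 3′ to the Gapdh 5′ control probe set, which is higher where transcripts were labelled less completely, came to 8.48, 6 and 8.14 on Math2 arrays 1, 2 and 3, and 13.8, 3.74 and 5.04 on control arrays 1, 2 and 3. Neuronal markers were present, with 1 of 8, Nefl, below the median on every array, and so were astrocyte markers, with 1 of 7, Slc1a2. Summed neuronal signals varied widely within each group, from 7566 to 24404 on the Math2 arrays and from 6918 to 18092 on the control arrays. Oligodendrocyte-lineage markers summed to 6916 to 9986 on the Math2 and 6271 to 10854 on the control arrays. Those of fibroblasts and meninges summed to 4846 to 6469 and 5370 to 7097. All 6 microglial markers lay below the median on every array, with summed signals of 173 to 223 on the Math2 arrays and 208 to 272 on the control arrays. Of the marker lists, summed signals did not overlap between the groups for endothelial and mural cells alone, at 397 to 504 on the Math2 arrays and 252 to 312 on the control arrays over 5 of 6 markers. Pecam1, Cldn5 and Tek of that list lay below every median, and Pdgfrb alone averaged 200 on the Math2 arrays and 51.7 on the control arrays. Whether these measures have a part in the differences of the 5 genes was not tested.

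Rtp3 had the largest difference of all tested probe sets. Its signals were 1497, 918 and 421 on Math2 arrays 1, 2 and 3, against 56.1, 124 and 59.2 on control arrays 1, 2 and 3. All 3 Math2 arrays lay above all control arrays, and the lowest Math2 signal was 3.38 times the highest control signal. The mean was 945 ± 538 in the Math2 group and 79.9 ± 38.6 in the control group (SD, n = 3 each). On the scale of log2(signal + 7.42), where the added pseudocount damps differences of dim probe sets, the difference was 3.35, or 10.2-fold. Control arrays 1 and 3 were below their array median, so the control level is near the range where a signal cannot be told from background without detection calls, and the size of the fold is uncertain. The Math2 signals themselves differed 3.56-fold from each other, the widest spread among the 5 genes.

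Ppp1r17 came next. It measured 385, 488 and 194 on Math2 arrays 1, 2 and 3, against 61.6, 45.6 and 64.8 on control arrays 1, 2 and 3. The groups did not overlap, with a factor of 3.00 between the lowest Math2 and the highest control signal. Means were 356 ± 149 and 57.4 ± 10.3 in the Math2 and control groups (SD, n = 3 each), and the log2 difference was 2.40, or 5.29-fold. All 3 control signals were below the array median, at percentile 37.5 of all probe sets on average, so this fold too is uncertain in size.

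Tmem178a rested on brighter signals. It measured 1329, 1132 and 1541 on Math2 arrays 1, 2 and 3, against 608, 511 and 705 on control arrays 1, 2 and 3. Array 3 was the highest and array 2 the lowest in both groups, and the groups did not overlap. The means were 1334 ± 204 in the Math2 group and 608 ± 96.9 in the control group (SD, n = 3 each), a log2 difference of 1.12 or 2.18-fold. The SD of the log2 values was 0.22 in the Math2 group and 0.23 in the control group.

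Bola2 was the brightest of the 5 genes, at percentile 91.3 of all probe sets in the control arrays. Its signals were 5360, 4107 and 3240 on Math2 arrays 1, 2 and 3, against 1939, 2128 and 1875 on control arrays 1, 2 and 3. The control arrays lay within a factor of 1.14 of each other, and the Math2 arrays within 1.65. The means were 4236 ± 1066 in the Math2 group and 1981 ± 132 in the control group (SD, n = 3 each), a log2 difference of 1.07 or 2.09-fold. Bright probe sets tended to be higher on the Math2 arrays: the log2 difference had a median of 0.43 over the 186 probe sets that make up the brightest 1% of those tested, against -0.03 over all that were tested. With quantile normalization, which forces all arrays to one distribution of signals, Bola2 had a log2 difference of 1.04.

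Clmp was measured by 2 probe sets. The brighter one had signals of 241, 195 and 163 on Math2 arrays 1, 2 and 3, against 89.9, 88.3 and 133 on control arrays 1, 2 and 3. The dimmer one had 159, 163 and 216 on Math2 arrays 1, 2 and 3, against 71, 67.1 and 115 on control arrays 1, 2 and 3. On both, all Math2 arrays exceeded all control arrays, and control 3 was the highest control. The probe sets differed in which Math2 array was highest, array 1 on the brighter and array 3 on the dimmer. The log2 differences were 0.91 and 1.05, or 1.87-fold and 2.07-fold, from control means of 104 ± 25.1 and 84.3 ± 26.5 (SD, n = 3) that lay within or below the range of array medians. The lowest Math2 signal exceeded the highest control signal by a factor of 1.23 on the brighter and 1.39 on the dimmer, the narrowest gaps among the 6 probe sets.

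**Figure D1:**
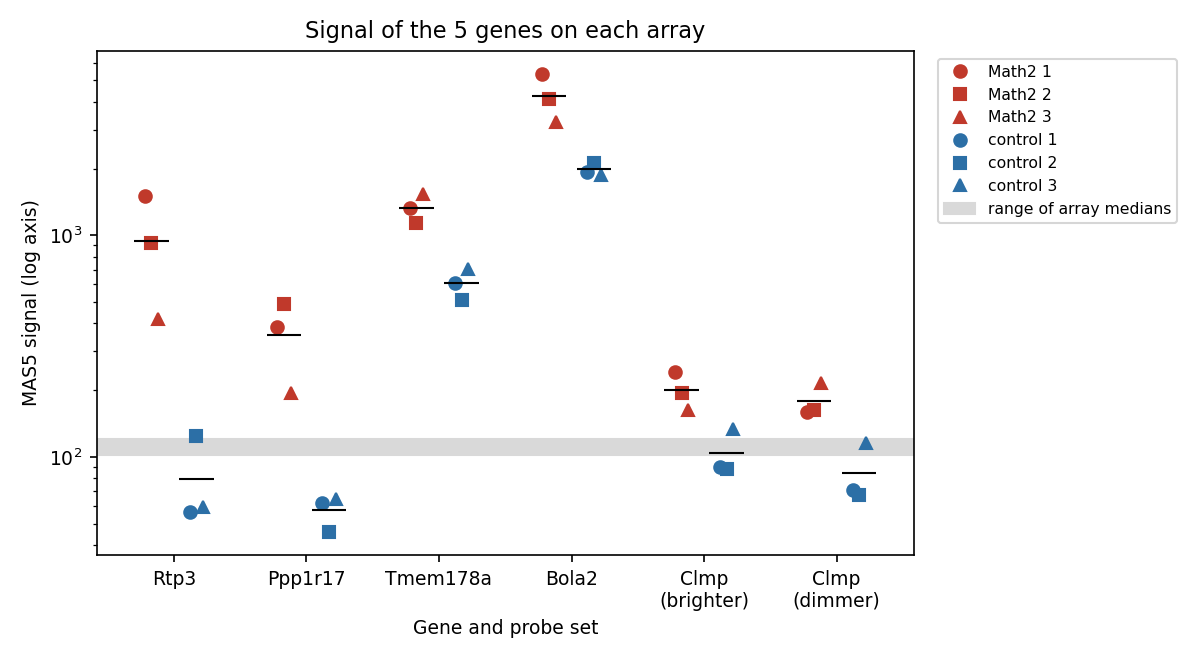
MAS5 signal (log axis) of the 6 probe sets on each array, with Math2 arrays in red to the left of control arrays in blue, marker shapes for the replicate number, black lines for group means and a grey band for the range of array medians (102 to 120). On each probe set all Math2 arrays exceed all control arrays, and Rtp3, Ppp1r17 and Clmp start from control signals near or below the band.

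Over the 18625 probe sets that passed the filter on low signals, all 6 probe sets of the 5 genes among them, the Math2 arrays were higher than the control arrays without overlap for 689, or 3.7%. The 6 probe sets are among these by the way they were picked, so nothing is read from that. At least a 2-fold difference without overlap was found for 69, or 0.37%. Rtp3, Ppp1r17, Tmem178a, Bola2 and the dimmer Clmp probe set were within these 69, and the brighter Clmp probe set, at 1.87-fold, was not. By log2 difference Rtp3 ranked 1 and Ppp1r17 ranked 2 among all tested probe sets. Tmem178a ranked 70, Bola2 ranked 92 and the Clmp probe sets ranked 100 and 190, so only Rtp3 and Ppp1r17 were at the very top by size. These ranks depend on the filter: among all 31042 probe sets, dim ones included, Rtp3 ranked 1, Ppp1r17 ranked 5, Tmem178a 602, Bola2 727 and the Clmp probe sets 765 and 1209. The filter was on the mean of all 6 arrays, at a log2 value of 6.07, and Ppp1r17 passed it only through its Math2 arrays, with a mean of 8.41, since its control mean alone lay below the limit. Dim probe sets vary more, and among the 15137 tested probe sets whose control mean was at or above every array median, Tmem178a ranked 18 and Bola2 ranked 26. Of 2540 genes with at least 2 tested probe sets, 8 had higher signals on all Math2 arrays than on any control array for each tested probe set. Ordered by their smallest difference, Clmp at 0.91 followed Plppr4, the gene named in the series title, at 1.32 and the RNA-binding protein gene Elavl2 at 0.96. The 5 genes were picked for large differences or for agreement of their probe sets, so nothing is read from these ranks or from the place of Clmp.

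**Figure D2:**
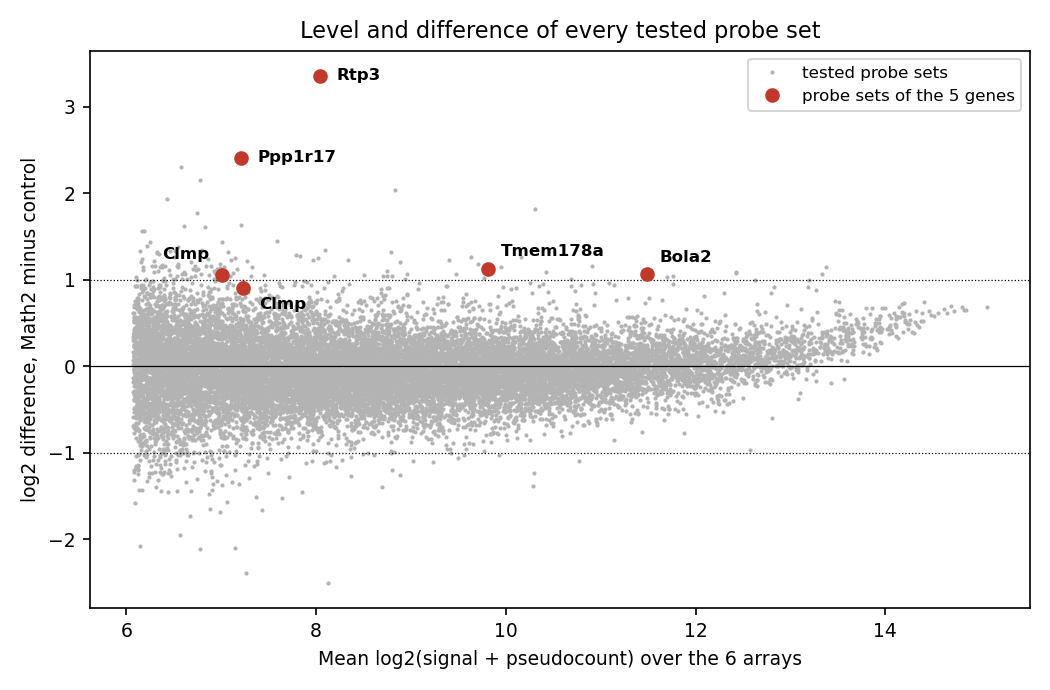
Log2 difference (Math2 minus control, vertical axis) against the mean log2(signal + pseudocount) of each of the 18625 tested probe sets (grey points), with the 6 probe sets of the 5 genes in red and dotted lines at 2-fold. Rtp3 at 3.35 and Ppp1r17 at 2.40 stand above all other points, Tmem178a and Bola2 lie at the upper edge for their level, and the Clmp points lie among many dim probe sets.

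In limma with p-values adjusted over the whole set of tested probe sets (Benjamini-Hochberg), 0% were called higher and 0% lower in the Math2 group, with a smallest adjusted p of 0.492, and at an unadjusted p under 0.05 there were 326 higher and 268 lower. With the replicate number as a block, 0.0161% were called higher, which is 3 probe sets, and 0% lower. With block and quantile normalization 4 were called higher and 2 lower, and with the block but without number 2 there were 51 higher and 63 lower. Rtp3 was one of these 3, and since the same contrast chose it nothing is read from that. The other two were the brighter Plppr4 probe set and a probe set that has no symbol here and was singled out after its values were seen.

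The titles number the arrays 1 to 3 in each group, and the difference within each number varied from gene to gene. Tmem178a had log2 differences of 1.12, 1.14 and 1.12 for numbers 1, 2 and 3, the most even of the 5 genes. Rtp3 had 4.57, 2.81 and 2.68, so number 1 stood apart from the others. Ppp1r17 had 2.51, 3.22 and 1.48, with number 3 the lowest. Bola2 had 1.46, 0.95 and 0.79, in the same order as Rtp3. Clmp had 1.35, 1.08 and 0.28 on its brighter probe set and 1.09, 1.19 and 0.87 on its dimmer one. Number 3 was the smallest for every probe set but that of Tmem178a, where the numbers differed by 0.02 at most. All 18 differences were above 0.

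**Figure D3:**
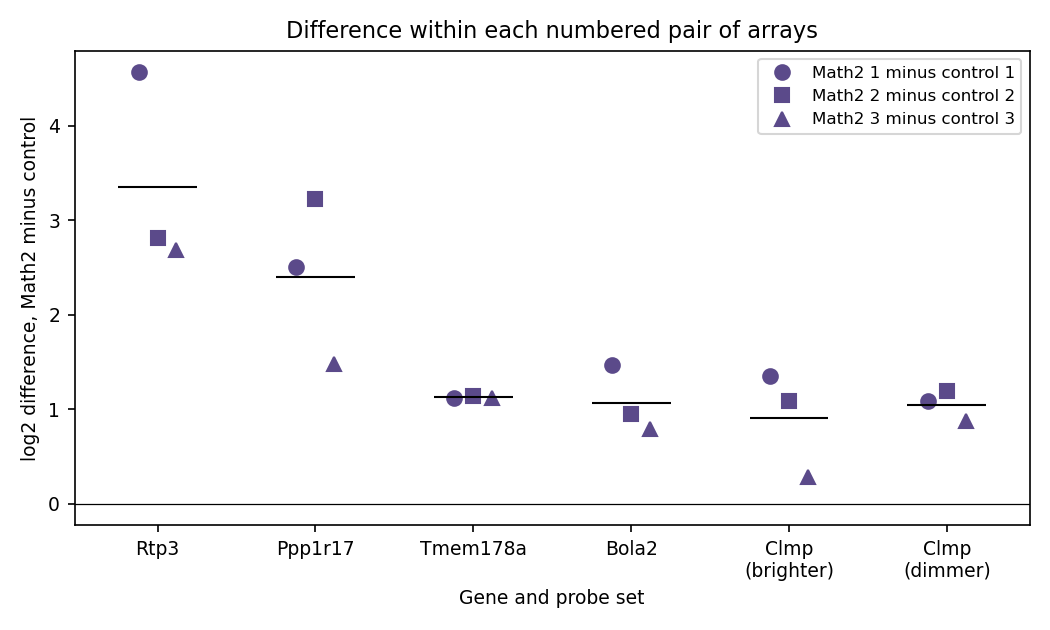
Log2 difference of each Math2 array from the control array of the same number (marker shapes for numbers 1, 2 and 3) for the 6 probe sets, with black lines for the difference of group means. All 18 points lie above 0, which follows from the lack of overlap between the groups. Those of Tmem178a lie at nearly one height. The number 1 point of Rtp3 at 4.57 and the number 3 point of the brighter Clmp probe set at 0.28 are the extremes.

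The signals of Rtp3, Bola2 and the brighter Clmp probe set were highest on Math2 array 1 and lowest on Math2 array 3, and the spike-in signal had the same order. Tmem178a and the dimmer Clmp probe set were highest on Math2 array 3. The probe set of Neurod6, the gene of the transfected factor, measured 312, 167 and 1546 on Math2 arrays 1, 2 and 3, against 386, 207 and 973 on control arrays 1, 2 and 3, and so was highest on array 3 in both groups. The labels do not say which species' sequence was transfected or which part of the gene, so this probe set may not detect it.

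To describe which genes behaved most alike, the 6 log2 values of each probe set were centred on their mean and the root-mean-square distance between profiles was taken. A distance of 0 would mean equal differences on every array. Since each of the 5 genes differs between the groups, the profiles nearest to it tend to differ as well, and no test applies. The 2 Clmp probe sets lay 0.30 apart. Of the 13752 probe sets with a symbol that were compared with Tmem178a, the dimmer Clmp probe set was the nearest, at 0.15. After it came Kctd14, a gene of the potassium channel tetramerization domain family, at 0.18 and Elavl2 at 0.18. Kctd14 measured 770, 686 and 688 on Math2 arrays 1, 2 and 3, against 380, 245 and 408 on control arrays 1, 2 and 3.

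For Bola2 the nearest profiles were those of Lyrm9, a gene of the LYR motif family, at 0.13, Id2, an antagonist of bHLH factors, at 0.17 and Rwdd2a at 0.17. Lyrm9 measured 476, 355 and 219 on Math2 arrays 1, 2 and 3, against 164, 181 and 165 on control arrays 1, 2 and 3, with the same order of the Math2 arrays as Bola2. With quantile normalization 0 of these 3 remained among the nearest. For Clmp, by its brighter probe set, they were Srp54a, of the signal recognition particle, at 0.093, the cation channel gene Trpc4 at 0.16 and Tcf4, a bHLH partner of neuronal factors, at 0.18. Srp54a was dim, at 121, 89.6 and 71.7 on Math2 arrays 1, 2 and 3, against 37.3, 42.3 and 69.2 on control arrays 1, 2 and 3. All 3 control and 2 Math2 signals lay below the array median. Like Ppp1r17, it passed the filter only through its Math2 arrays. Tcf4 measured 17590, 13775 and 11452 on Math2 arrays 1, 2 and 3, against 8886, 8499 and 10566 on control arrays 1, 2 and 3.

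Rtp3 and Ppp1r17 had no close match. The distance counts the size of a difference, and theirs were the largest of all tested probe sets. The lack of a close match therefore says little of their pattern across the arrays. The nearest to Rtp3 were the cytokine gene Tnf at 0.71, Ppp1r17 at 0.74 and the chromatin remodeller gene Chd9 at 1.08, where the size of the Rtp3 profile itself was 1.79. The nearest to Ppp1r17 were Fbrs at 0.58 and the Plppr4 probe sets at 0.60 and 0.61, where its own size was 1.27. Tnf and Fbrs, with control means of 36.3 and 48.1, also passed the filter only through their Math2 arrays. The brighter Plppr4 probe set measured 770, 844 and 1177 on Math2 arrays 1, 2 and 3, against 251, 152 and 269 on control arrays 1, 2 and 3. Array 3 was thus the highest Math2 array for this Plppr4 probe set and the lowest for Ppp1r17. The dimmer Plppr4 probe set measured 176, 300 and 164 on Math2 arrays 1, 2 and 3. That is the same order of the Math2 arrays as for Ppp1r17, so the 2 Plppr4 probe sets differed in this order. On control arrays 1, 2 and 3 the dimmer one measured 83.6, 74.0 and 75.6.

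The relatives and partners of the 5 genes were listed by known function, not by how they moved. Of 83 genes listed, 73 had a probe set under their own symbol and 68 of these passed the filter, each represented by its brightest probe set. In limma without the block 0 were called higher and 0 lower, as over all tested probe sets (0% each), and 0 had an unadjusted p under 0.05, against 3.19% of all tested probe sets. With the replicate block 0 were called, against 0.0161% higher and 0% lower over all, and 3 of the 68 had an unadjusted p under 0.05, against 7.7% of all tested probe sets. These 3 were Reep1 and Ocln, both lower, and Ppp1cc, higher. In limma with the block their unadjusted p was 0.0101, 0.0195 and 0.0376, and their adjusted p 0.490, 0.535 and 0.613. The SE with the block was 0.250 for Reep1, 0.291 for Ocln and 0.147 for Ppp1cc. Each tested relative named in what follows had a limma adjusted p of 1.00 without the block. Every SE given below is from that fit, which ignores the pairing by number. The largest log2 difference among the 68 was 0.36 and the lowest -0.78, while the smallest among the 6 probe sets of the 5 genes was 0.91. As a background for the counts below, 8517 of all 18625 tested probe sets had a difference above 0, and their median was -0.03. The counts above and below 0 were not tested.

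For Rtp3, 7 of 9 receptor transporters and REEP proteins were tested, with 3 above and 4 below 0 and a median log2 difference of -0.05. All of those tested but Rtp4 were REEP proteins. Rtp4, the closest relative measured and an interferon-induced gene, had 3021 ± 781 in the Math2 group and 2395 ± 776 in the control group (SD, n = 3 each), a difference of 0.36 (SE 0.298). Rtp1 and Rtp2 have no probe set under their symbol here. Reep1 had a difference of -0.76 (SE 0.577) and Reep5 of 0.30 (SE 0.254).

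For Ppp1r17, 17 of 21 inhibitors and catalytic subunits of protein phosphatases 1 and 2A and cGMP-dependent kinases were tested, with 11 above and 6 below 0 and a median of 0.04. With quantile normalization the majority turned, with 10 of the 17 below 0 and a median of -0.03. Ppp1r1a, inhibitor 1 of protein phosphatase 1, had 193 ± 11.1 and 167 ± 50.8 in the Math2 and control groups (SD, n = 3 each), a difference of 0.24 (SE 0.328). Ppp1r1b and Ppp1r1c were too dim to be tested, with means of 30.8 and 39.9 in the Math2 group and 52.4 and 33.3 in the control group. The catalytic subunit genes that Ppp1r17 acts on were bright: Ppp1cc had a difference of 0.34 (SE 0.18), which was -0.04 with quantile normalization, Ppp1cb 0.26 (SE 0.186) and Ppp2cb 0.04, which was -0.14 with quantile normalization. Ppp1r14b, an inhibitor of protein phosphatase 1, had 0.29 (SE 0.213). Prkg2, a cGMP-dependent kinase, had -0.64 (SE 0.557). The other cGMP-dependent kinase gene listed, Prkg1, has no probe set under its symbol here, so it was not measured.

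For Tmem178a, 16 of 17 genes of store-operated calcium entry and NFAT signalling were tested. Of these 2 were above and 14 below 0, with a median of -0.22 that was -0.22 with quantile normalization too, and none was called. Over all tested probe sets, 8517 of 18625 were above 0, and the median was -0.03, or -0.02 with quantile normalization. Whether the list differs from that background was not tested. The paralogue Tmem178b had 355 ± 244 and 442 ± 172 in the Math2 and control groups (SD, n = 3 each), a difference of -0.43 (SE 0.467). The calcineurin subunit gene Ppp3r1 had -0.44 (SE 0.371), the calcium sensor gene Stim2 -0.28 (SE 0.251) and the calcineurin catalytic gene Ppp3cb -0.24 (SE 0.258). Nfatc1, the NFAT factor linked to Tmem178a in mouse osteoclasts, had -0.22 (SE 0.363).

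For Bola2, 19 of 21 BolA and iron-sulphur assembly genes were tested, with 10 above and 9 below 0 and a median of 0.01. With quantile normalization 10 of the 19 lay below 0 and the median was -0.03. Bola1 had 841 ± 243 and 766 ± 122 in the Math2 and control groups (SD, n = 3 each), a difference of 0.11 (SE 0.282). Bola3 had 0.10 (SE 0.259). Glrx3, the partner of Bola2, was bright at 12875 ± 3349 and 12160 ± 1442, with a difference of 0.06 (SE 0.21) that was -0.30 with quantile normalization. The iron-sulphur assembly genes Nubp1 and Hscb had 0.22 each (SE 0.234 and 0.251), and Ciao3 had -0.22 (SE 0.315).

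For Clmp, 9 of 15 junctional adhesion genes were tested, with 2 above and 7 below 0 and a median of -0.14. With quantile normalization 6 of the 9 lay below 0. The paralogue Cxadr, the coxsackievirus and adenovirus receptor, was too dim to be tested, with means of 14.5 in the Math2 group and 21.5 in the control group. Esam had a difference of -0.08 (SE 0.435). Ocln, a tight junction protein, measured 172, 164 and 88.7 on Math2 arrays 1, 2 and 3, against 284, 248 and 192 on control arrays 1, 2 and 3, so the groups did not overlap, and its difference was -0.78 (SE 0.355). Jam3 had -0.41 (SE 0.283) and Jam2 -0.15 (SE 0.2). The Math2 arrays lay below the control arrays without overlap for Ocln and for 1 other of the 68 relatives, the iron-sulphur gene Nfs1, against 4.3% of all tested probe sets.

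**Figure D4:**
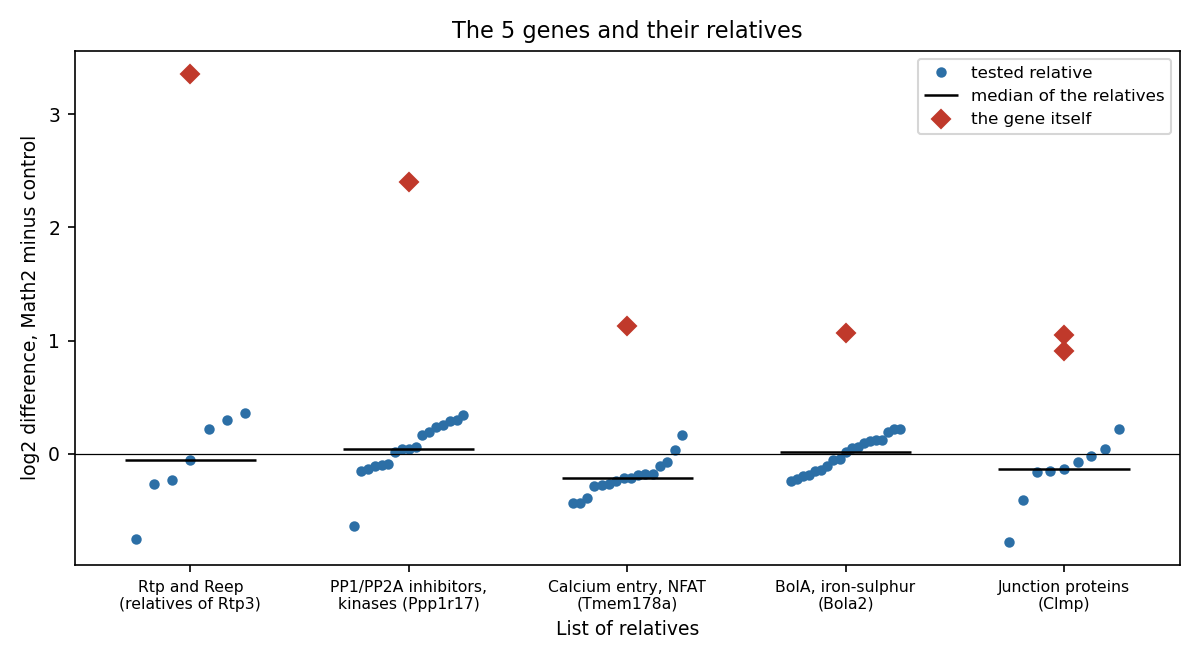
Log2 difference (Math2 minus control, vertical axis) of the 68 tested relatives in 5 lists (blue points, sorted within a list, with a black line at the median) and of the 5 genes themselves (red diamonds). The relatives lie between -0.78 and 0.36, while the 5 genes, which were chosen for their differences, lie between 0.91 and 3.35.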

How the data were processed

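The deposited table holds 1 signal intensity per probe set for each of 6 arrays. Per the submitters' processing notes the authors used MAS5, for which the sources used here give no settings. Each array had a mean of 500 once 2% of signals was trimmed at either end, so no further scaling was applied. Symbols came from GEO's platform annotation, which can be outdated: 20826 probe sets had 1 symbol, 436 several and 9780 none. Of the single symbols, 20758 matched RefSeq genes of GRCr8 by gene number, and 0 changed.

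Signals were transformed to log2(signal + 7.42), the pseudocount being the 10th percentile of positive signals. The filter kept probe sets whose log2 values averaged no less than 6.07 (their 40th percentile), and these were tested with limma 3.58.1 in R 4.3.3 (eBayes with trend), two-sided, with Benjamini-Hochberg adjustment and a threshold of 0.05. The fit was tested on simulated data. A fold is 2 to the power of the log2 difference, not the ratio of means.

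Arrays of the same number deviated together from their groups, with correlations of 0.326, 0.476 and 0.372 for numbers 1, 2 and 3, each above the limit of 0.1 for pairing. Those of unlike numbers ran from -0.460 to 0.104, and Math2 array 3 with control array 1, at 0.104, also passed the limit. The limit alone thus does not show that the numbers mark pairs. On the ground of the data, not of the labels, the number was used as a block in alternative fits. The main fit had no block and did not treat arrays as pairs.

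Named were all probe sets of the 5 genes, the 3 relatives per list with the smallest p and direct paralogues, the 3 nearest profiles per gene, Neurod6 and Plppr4. Ppp2cb, Prkg2, Nfatc1, Glrx3 and Nfs1 fall outside this rule and were named after their values were seen. The genes and lists were chosen with earlier results of these data known. Normalization, pseudocount, filter, block, trend and left-out arrays were varied.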

Additional observations from a re-analysis of the deposited data

How the results depend on the processing

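By the way the 5 genes were picked, all Math2 arrays exceeded all control arrays on each of their probe sets. Leaving out arrays, changing the pseudocount or adding the block could thus not turn a sign, and nothing is read from the signs. The 5 genes kept the sign of their difference under every alternative run, which is 84 values with 0 below 0, and 83 of them moved by less than 1 SD. The exception was the brighter Clmp probe set, at 1.22 with the replicate block and without number 3. Leaving out 1 array at a time gave 2.94 to 3.84 for Rtp3, 2.13 to 2.78 for Ppp1r17, 1.01 to 1.24 for Tmem178a, 0.88 to 1.24 for Bola2, and 0.77 to 1.08 and 0.91 to 1.28 for the brighter and the dimmer Clmp probe set. Leaving out number 1 altogether gave 2.75 for Rtp3. The count of called probe sets was 0 in each of the 13 alternatives without the block. With the block it was 3, with block and quantile normalization 6, and with the block and 1 number left out 4 without number 1, 114 without number 2 and 15 without number 3; the cause was not tested. Each of these counts is out of 18625 tested probe sets. Rtp3 was among those called in each of these 5 settings. Ppp1r17 was called with block and quantile normalization, without number 2 and without number 3, and Tmem178a and Bola2 without number 2. The same contrast chose these genes, so nothing is read from their calls. Calls among the relatives were 0 in every setting. The nearest genes depended on the scale: with quantile normalization Bola2 kept 0 of its 3, Clmp kept 2 of 3, and Rtp3, Ppp1r17 and Tmem178a kept all of theirs. They depended on the pseudocount too. With a pseudocount of 32 another gene came in for Rtp3, Ppp1r17, Bola2 and Clmp, and with a pseudocount of 1 for Rtp3 and Clmp. Tmem178a kept its nearest genes with both. Low signal limits the folds of Rtp3, Ppp1r17 and Clmp, and 3 arrays per group limit the precision of all values.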

Other observations

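The order of genes in RefSeq places Ppp1r17 near the gene of the transfected factor. On rat chromosome 4 the only protein-coding gene between Neurod6 and Ppp1r17 is Itprid1, which has no probe set under its symbol here. Neurod6 had a log2 difference of 0.02 (SE 0.745) beside the 2.40 of Ppp1r17. On the other side of Ppp1r17, Pde1c, a phosphodiesterase gene, was too dim to be tested, with means of 38.6 in the Math2 group and 50.6 in the control group, and Lsm5, an RNA-binding protein gene, had a difference of 0.23. This look at neighbours was chosen after the values were seen. Taking 2 protein-coding genes on each side of all 5 genes gave 20 neighbours, of which 10 had a probe set under their symbol and 7 were tested. In limma 0 of the 7 were called, without or with the replicate block, and 0 had an unadjusted p under 0.05 in either fit, against 3.19% of all tested probe sets without and 7.7% with the block. With 7 probe sets, counts of 0 say little of the neighbours. The differences of the 7 ran from 0.02 for Neurod6 to 0.53 for Coro1a, the neighbour of Bola2. The groups overlapped for each of the 7. Over all tested probe sets 3.7% were higher and 4.3% lower without overlap. The 3 neighbours too dim to be tested, Ccrl2, Pde1c and Sult1a1, had differences of -0.49, -0.43 and -0.43. The neighbours of Tmem178a, Thumpd2 and Map4k3, had differences of 0.17 and 0.15.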
